A study of Mus musculus with 50 samples.

Results

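The genes described here are 9 plasma membrane amino acid transporters, Slc7a1, Slc7a2, Slc7a5, Slc7a8, Slc3a2, Slc38a1, Slc38a2, Slc38a4 and Slc1a5. They were taken by symbol from a list that was drawn up with earlier results of these data known. All 9 were among the 23880 genes of the deposited tables, and all 9 passed the filter on low counts that left 12586 genes for testing. RNA of the gastrocnemius muscle of 50 wild type male C57BL/6JRj mice was sequenced, 1 library per mouse, to follow transcripts while muscle is lost with age. The groups held 8 mice aged 8 months, 8 aged 18, 8 aged 22, 8 aged 24, 9 aged 26 and 9 aged 28 months. All mice were caged singly and ate the purified AIN93M diet, but mice of 8 and 18 months were moved to that diet some months before sampling. The mice of 22 to 28 months ate it from about 18 months of age, so that those of 22 months had eaten it for a few months. Age and diet history can therefore not be told apart where mice of 22 to 28 months are compared with those of 8 months. The mice of 8 and 18 months had a like diet history. The ages from 22 to 28 months shared one regime, but time on the diet grew with age among them. The mice were of one sex and one inbred strain, and animals with overt disease had been left out by the study.

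Muscle holds most of the free amino acids of the body, and they cross the fibre membrane through carriers of a few transport systems. The system L light chains Slc7a5 and Slc7a8 exchange large neutral amino acids such as leucine and work only when joined to the heavy chain Slc3a2. System A (Slc38a1, Slc38a2, Slc38a4) brings in small neutral amino acids with sodium, Slc7a1 and Slc7a2 carry arginine and lysine, and Slc1a5 exchanges glutamine and other neutral amino acids. Leucine and arginine that enter the cell are sensed by the mTORC1 kinase complex, and transcription of several of these carriers is known to respond to amino acid shortage.

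The genes lie on several chromosomes, but the 3 system A genes are neighbours on chromosome 15 of GRCm38. Slc38a1 (chr15:96571418-96642913), Slc38a2 (chr15:96687392-96699730) and Slc38a4 (chr15:96994820-97055956) are all on the minus strand within 484.5 kb. The gaps between them are 44.5 kb and 295.1 kb, and no protein-coding gene of GENCODE vM21 lies in either. Of the 9 genes, 5 were matched by symbol in the RefSeq promoter table (GRCm38.p6). The 250 bases before each start site were searched on both strands for 3 motifs that do not overlap one another: TGATGNAA (a C/EBP-ATF response element, which ATF4 can bind), CACGTG (an E-box) and GGGCGG (a GC box). At the first start site of each of the 5 genes the GC box was found and the other motifs were not. Of the further start sites, the second of Slc38a4 also held a GC box. The second of Slc7a1 and the third of Slc38a4 held none of the 3 motifs. Bases after the start sites, such as first exons and introns, were not searched, so that motifs there would have been missed. A GC box was held by 32.7% of all 32851 promoter windows, TGATGNAA by 3.45% and CACGTG by 6.02%. The windows of 30 bases around the GC box are given in the order of the genes' roles, to let the reader compare the positions at which Slc3a2, Slc7a8 and Slc7a1, which rose at 28 months, and the system A genes Slc38a2 and Slc38a4 carry the one motif found. All are on the minus strand, are written 5′ to 3′ along the gene, lie outside the annotated exons of their gene, and have the GC box, read on either strand, in capitals.
Slc3a2, chr19:8713902-8713931: agaggcggaccgGGGCGGagtcctgggtca
Slc7a8, chr14:54781976-54782005: ggaggaggtgggGGGCGGagcctcggtccg
Slc38a2, chr15:96699746-96699775: aacgcccgcgccCCGCCCactgacgcggcg
Slc38a4, chr15:97056139-97056168: taacaagacccaGGGCGGgtggaggggcct
Slc7a1, chr5:148399923-148399952: tctcgggtgtccCCGCCCacaggggcgcgg
The first base of the box lies 22 bases before the first listed start site of Slc3a2 and 36 before that of Slc7a1. It lies 35 bases before that of Slc38a2, 107 before that of Slc7a8 and 200 before that of Slc38a4. The start site and window of Slc3a2 lie inside the annotated gene (chr19:8706882-8723369), whereas the other windows lie before the annotated start of their gene. In Slc7a1 and Slc38a2 the box is on the opposite strand of the gene. These matches describe letters and say nothing of binding.

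Total counts per mouse ranged from 13607229 to 21267375 and had medians of 18409468 at 8 months and 15922011 at 28 months. The 6 fast fibre markers (Acta1, Ckm, Myh4, Myh1, Tnnt3, Pvalb) were present in every library and their summed level ranged from 133106 to 176327 CPM (counts scaled to a common library size) at 8 months and from 94028 to 199757 at 28 months. In bulk muscle, fewer cells of a type and less RNA per cell cannot be told apart. Between 28 and 8 months, 7 of 8 tested genes of a denervation list and 6 of 9 macrophage markers were higher, and 4 of 6 adipocyte and 4 of 7 fibroblast markers were lower. Of all genes tested, 21% were higher and 18.7% lower. In the fast fibre list (6 tested) and the satellite cell list (4 tested), 1 gene was higher and 1 lower. Of 5 erythroid markers 1 was higher, of 7 endothelial markers 1 was lower, and 0 of 6 slow fibre and 0 of 6 Schwann cell markers were called. Summed lymphocyte markers reached at most 3.12 CPM in any mouse. Replicate 2 of 28 months held the highest Slc7a1, Slc7a2, Slc38a1 and Slc38a4 values and the lowest Slc1a5 value of its age, and results that depend on it are also given without it.

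All 6 ages were fitted together on the counts with edgeR (TMM factors, quasi-likelihood test, adjustment over all genes tested), and a gene is called when its adjusted p, the false discovery rate (FDR), is below 0.01. Between 28 and 8 months, 5 of the 9 transporters rose, 1 fell and 3 were not called. The risers were the arginine carriers Slc7a2 and Slc7a1, the heavy chain Slc3a2 and both system L light chains, and the gene that fell was the glutamine exchanger Slc1a5. Of all genes tested, 39.6% were called in this comparison, with 2639 (21%) higher and 2349 (18.7%) lower, so that 6 called of 9 stands beside a high background. The median log2 fold change over all 12586 genes was 0.01. No transporter was called at 18, 22 or 24 months against 8 months, where 0.0715%, 0.0397% and 0.612% of genes were called. At an FDR of 0.05, Slc1a5 alone of the 9 was called at 24 months, with 2.63% of genes called. At 26 months, 4 were called (Slc7a2, Slc3a2 and Slc7a8 higher, Slc1a5 lower), with 18.4% of genes called (9.84% higher and 8.54% lower). The comparisons with 8 months all share the same 8 control mice, and their values are therefore set side by side without a count of agreement.

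**Figure D1:**
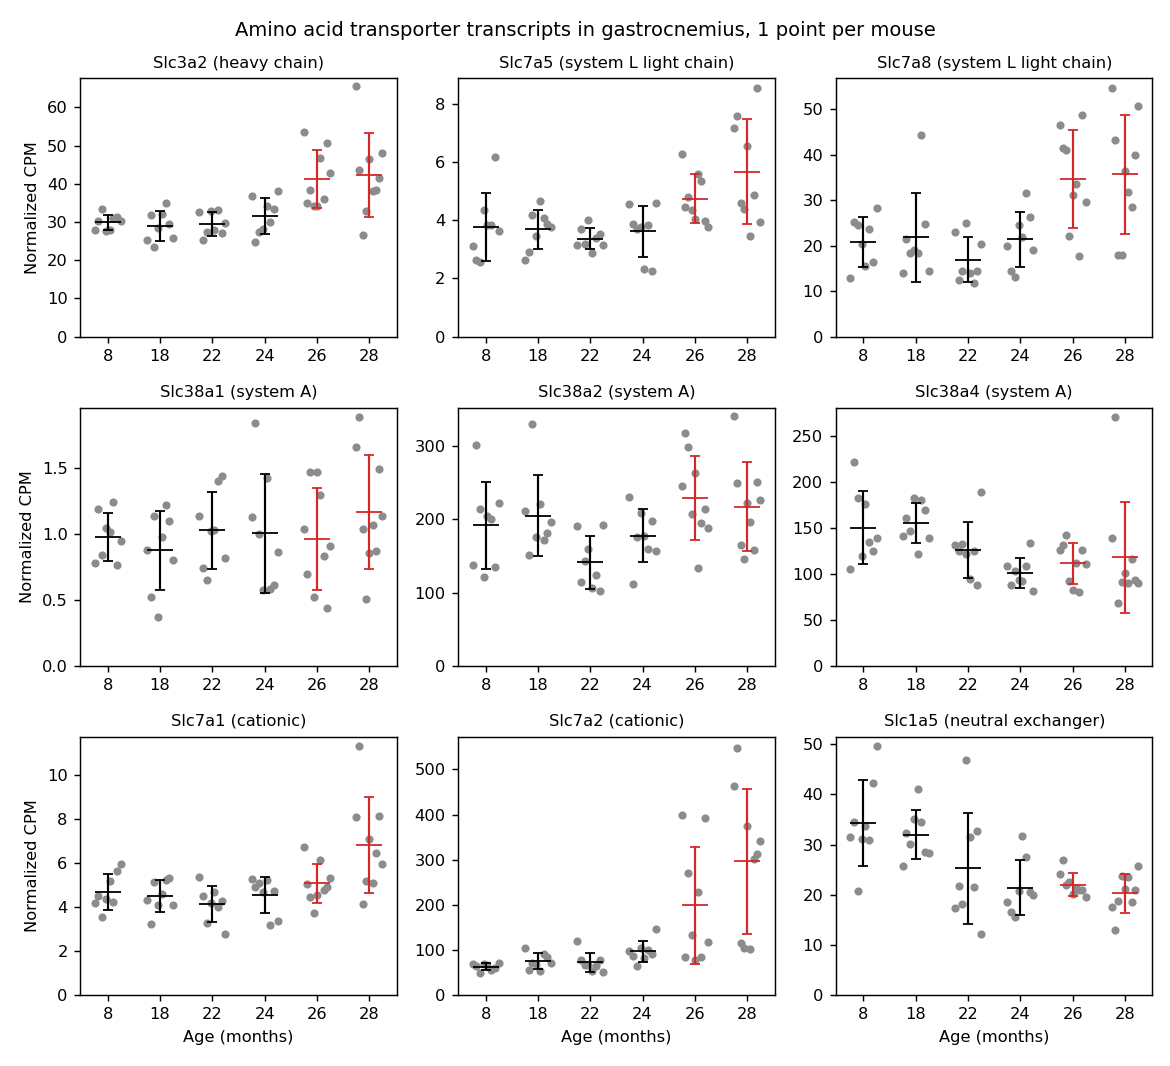
TMM-normalized CPM (linear axes from 0) of each of the 9 genes in each of the 50 mice against age in months, with 1 grey point per mouse and the mean ± SD of each age (red at 26 and 28 months). Slc7a2 reached 548 CPM at 28 months with every mouse of 26 and 28 months above the 8 months-old range, whereas Slc1a5 went from a mean of 34.3 CPM at 8 months to 20.3 at 28 months.

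The heavy chain Slc3a2 (chr19:8706882-8723369) carries its light chains to the membrane and has no carrier function of its own. Its level was 27.7 to 33.3 CPM at 8 months with a median of 30.3. In mice of 28 months the lowest, median and highest values were 26.6, 41.4 and 65.5 CPM. Of these 9 mice, 7 lay above the whole 8 months-old range and 1 lay below it. The rise was 0.50 ± 0.11 (SE) on the log2 scale with an FDR of 0.000271. At 26 months the lowest, median and highest were 34.1, 38.3 and 53.5 CPM, so that all 9 mice exceeded the 8 months-old mice, and the log2 fold change was 0.46 ± 0.11 with an FDR of 0.00171. The spread widened with the level, from an SD of 1.97 CPM at 8 months to 11.0 CPM at 28 months.

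The light chain Slc7a8 (LAT2, chr14:54722209-54781946) exchanges neutral amino acids of many sizes. At 8 months its lowest, median and highest values were 12.9, 21.9 and 28.2 CPM, and at 28 months they were 17.9, 36.3 and 54.6 CPM. At 28 months 7 mice lay above the 8 months-old range and the other 2 held 17.9 and 18.0 CPM. The log2 fold change was 0.78 ± 0.22 with an FDR of 0.00322, and without replicate 1 of 28 months it was 0.68 with an FDR of 0.0109. At 26 months it was 0.73 ± 0.22 with an FDR of 0.00982, close to the threshold, and this call was lost with upper-quartile factors, without the filter, with limma on TPM, with the replicate number as a block (FDR 0.0164) and in 34 of 50 fits that left out 1 mouse. The other light chain, Slc7a5 (LAT1, chr8:121881150-121907694), prefers large neutral amino acids and is the carrier most often tied to leucine entry. It was low in this muscle, with 33 to 141 counts per mouse. Its lowest, median and highest values were 2.56, 3.74 and 6.18 CPM at 8 months and 3.44, 4.86 and 8.55 CPM at 28 months. The ranges overlapped, and 4 of 9 mice exceeded the highest 8 months-old mouse. The log2 fold change was 0.59 ± 0.16 with an FDR of 0.00212, but in a fit of just these ages the FDR was 0.0236, and with limma on log2(TPM + 1) it was 0.0138. At 26 months Slc7a5 was not called, with a log2 fold change of 0.33 ± 0.16 and an FDR of 0.109.

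The system A gene Slc38a2 (SNAT2) is the carrier whose transcript is best known to respond to amino acid supply. It was among the most abundant of the 9 at every age. At 8 months its lowest, median and highest values were 122, 202 and 302 CPM, and at 28 months they were 146, 223 and 341 CPM. These ranges overlapped almost entirely, and the log2 fold change of 0.18 ± 0.18 was not called (FDR 0.403, 95% interval from -0.17 to 0.52). The lowest mean was found at 22 months, where the lowest, median and highest values were 102, 134 and 193 CPM. Within the single diet regime, 28 months stood above 22 months by 0.62 ± 0.18 on the log2 scale with an FDR of 0.00474, and 6 of 9 mice exceeded all mice of 22 months. This call was lost in a fit of just these ages (FDR 0.0111) and in 6 of 50 fits that left out 1 mouse. Its neighbour Slc38a4 (SNAT4), which also accepts cationic amino acids, had values of 105, 136 and 222 CPM (lowest, median and highest) at 8 months and of 68.6, 93.4 and 269.8 CPM at 28 months. In 6 of 9 mice of 28 months it lay below the whole 8 months-old range, and in replicate 2 it lay above that range. The log2 fold change of -0.35 ± 0.17 was not called (FDR 0.0854). Without replicate 2 of 28 months it was -0.61 with an FDR of 0.000577 and Slc38a4 would be counted as lower, so that 1 mouse decided this call. At 24 and 26 months the log2 fold changes against 8 months were -0.57 ± 0.18 (FDR 0.0677) and -0.43 ± 0.17 (FDR 0.0499). The third gene, Slc38a1 (SNAT1), was near the limit of detection with 6 to 35 counts per mouse and at least 1 CPM in 27 of 50 mice. Its median CPM was 0.977 in mice of 8 months against 1.06 in those of 28 months, and no difference was detectable at this depth (log2 fold change 0.26 ± 0.24, FDR 0.372, 95% interval from -0.21 to 0.73).

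The arginine and lysine carrier Slc7a2 (CAT2, chr8:40862396-40922308) had the largest change of the 9 genes between 28 and 8 months. At 8 months its lowest, median and highest values were 49.2, 64.1 and 70.9 CPM. In the 9 mice of 28 months they were 102, 313 and 548 CPM, so that every mouse lay above all mice of 8 months. The mean went from 62.4 ± 7.68 (SD, n = 8) to 296 ± 161 CPM (n = 9), a log2 fold change of 2.24 ± 0.30 with an FDR of 1.64e-07. By unadjusted p, Slc7a2 was number 107 of the 12586 genes. At 26 months the lowest, median and highest were 78.3, 132 and 399.5 CPM, again with all 9 mice above the 8 months-old range, and the log2 fold change was 1.67 ± 0.30 with an FDR of 6.49e-05. The mice of one age differed widely. At 26 months 3 mice held between 78.3 and 84.8 CPM and 2 held over 390 CPM, and at 28 months 3 mice held between 102 and 115 CPM while the other 6 held between 301 and 548 CPM. The coefficient of variation was 12.3% at 8 months, 23.4% at 18 months, 29.9% at 22 months, 24.6% at 24 months, 65.7% at 26 months and 54.4% at 28 months. Already at 24 months, 7 of 8 mice lay above the 8 months-old range, and the log2 fold change of 0.62 ± 0.30 was not called (FDR 0.234), although it was in a fit of just these ages (FDR 0.00694). The second carrier of this system, Slc7a1 (CAT1, chr5:148327410-148399904), is the general arginine carrier of most cells. Its lowest, median and highest values were 3.54, 4.42 and 5.97 CPM at 8 months and 4.13, 6.45 and 11.3 CPM at 28 months. The ranges overlapped, and 5 of 9 mice lay above the 8 months-old range. The log2 fold change was 0.54 ± 0.14 with an FDR of 0.00171. It was 0.41 with an FDR of 0.0109 without replicate 2 of 28 months, and in a fit of just these ages the FDR was 0.0155. At 26 months Slc7a1 was not called (0.11 ± 0.15, FDR 0.576).

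The neutral amino acid exchanger Slc1a5 (ASCT2, chr7:16781340-16798274), a main route for glutamine in many cells, was the only one of the 9 genes called lower. Its lowest, median and highest values were 20.7, 32.6 and 49.7 CPM at 8 months and 13.0, 20.8 and 25.7 CPM at 28 months. All 9 mice of 28 months lay below the 8 months-old mean, and 4 lay below the lowest mouse of 8 months. The log2 fold change was -0.76 ± 0.17 with an FDR of 0.000221. At 26 months it was -0.64 ± 0.17 (FDR 0.00328, but 0.0155 with limma on log2(TPM + 1)), and at 24 months it was -0.68 ± 0.17 (FDR 0.0197, and 0.00762 with DESeq2). The lower level was thus measured at 24 months at nearly its later size, although it was not called there. The comparison of 28 with 22 months gave -0.32 ± 0.17 with an FDR of 0.123. The summed CPM of the 6 adipocyte markers was 290 ± 37.4 (SD, n = 8) at 8 months and 212 ± 48.9 (n = 9) at 28 months. Of the 6, 4 were lower at 28 months, beside 18.7% of all genes tested. Summed Schwann cell markers, of which 0 of 6 were called at 28 months, were 209 ± 85.7 and 150 ± 57.3 CPM.

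**Figure D2:**
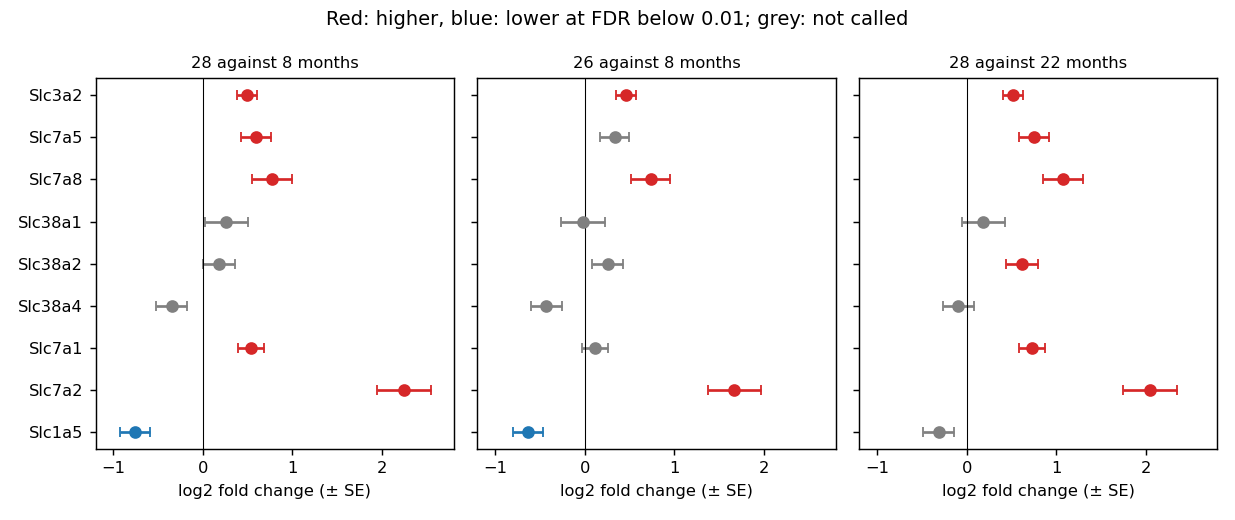
Log2 fold change ± SE of each gene (rows) in 3 comparisons, from the edgeR fit over 50 mice, in red where called higher, blue where called lower and grey where not called at FDR 0.01. Slc7a2 lies at 2.24, 1.67 and 2.05 in the 3 panels, and Slc1a5 is called lower against 8 months but not against 22 months.

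The comparison of 28 with 22 months kept to mice of one diet regime. Here 6 transporters were called, all of them higher, with 27.7% of genes called. The called genes were 2033 higher (16.2%) and 1452 lower (11.5%), and with upper-quartile factors they were 1494 higher and 1946 lower, so that the balance of directions in this comparison depended on the scaling. The log2 fold changes were 2.05 ± 0.30 for Slc7a2 (FDR 1.17e-05), 1.08 ± 0.22 for Slc7a8 (FDR 0.000254) and 0.75 ± 0.16 for Slc7a5 (FDR 0.0004). They were 0.73 ± 0.15 for Slc7a1 (FDR 0.00017), 0.62 ± 0.18 for Slc38a2 and 0.52 ± 0.11 for Slc3a2 (FDR 0.000338). The rise of the arginine carriers and of the system L genes was thus also measured within one diet regime. Mice of 28 months had been on the diet longer than those of 22 months, and age and time on the diet cannot be told apart here. For Slc38a2, Slc7a8, Slc7a5, Slc7a1 and, slightly, Slc3a2 the fold change was larger here than against 8 months, and for Slc7a2 it was smaller. The 2 comparisons share the mice of 28 months, and these differences were not tested. Slc7a8 at 22 months had values of 11.9, 14.5 and 24.9 CPM (lowest, median and highest), and 7 of 9 mice of 28 months lay above them.

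No transporter was called between adjacent ages, namely 22 against 18, 24 against 22, 26 against 24 and 28 against 26 months, where edgeR called 0.00795%, 0%, 0% and 0% of genes. At an unadjusted p under 0.05 there were 522, 478, 2202 and 1609 genes. Between 26 and 24 months the estimates were 1.04 ± 0.29 for Slc7a2 (FDR 0.0784), 0.38 ± 0.11 for Slc3a2 (FDR 0.0799) and 0.70 ± 0.22 for Slc7a8 (FDR 0.0971). Between 28 and 26 months they were 0.58 ± 0.28 for Slc7a2 (FDR 0.38) and 0.43 ± 0.14 for Slc7a1 (FDR 0.271), and 0.03 ± 0.11 for Slc3a2 (FDR 0.907). In the test of any difference among the 6 ages, 6 of the 9 were called (Slc7a1, Slc7a2, Slc7a5, Slc7a8, Slc3a2, Slc1a5), with 35.4% of genes called.

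Levels of different genes can be compared only per length, for which the deposited TPM values (transcript abundance scaled by length) were used. At 8 months the order of mean TPM was Slc38a4 (84.9), Slc38a2 (71.6), Slc3a2 (29.0), Slc1a5 (28.1), Slc7a2 (18.0), Slc7a8 (8.86), Slc7a5 (2.38), Slc7a1 (1.23) and Slc38a1 (0.268). Slc38a4 and Slc38a2 overlapped, as did Slc3a2 and Slc1a5, and Slc38a2 lay above Slc3a2 in all 8 mice without overlap of their ranges. At 28 months the order was Slc7a2 (93.1), Slc38a2 (84.5), Slc38a4 (72.0), Slc3a2 (43.3), Slc1a5 (17.5), Slc7a8 (15.8), Slc7a5 (3.55), Slc7a1 (1.91) and Slc38a1 (0.349). Slc7a2, number 5 by mean TPM at 8 months, exceeded Slc38a2 in 5 of 9 mice of 28 months, and its first place by mean rested on replicate 2. Without that mouse the mean TPM was 80.8 ± 42.0 (SD, n = 8) for Slc7a2, 81.1 ± 23.1 for Slc38a2 and 58.3 ± 11.3 for Slc38a4. The ranges of Slc7a2 and Slc38a2, of Slc38a2 and Slc38a4 and of Slc38a4 and Slc3a2 overlapped at 28 months, and those of Slc3a2 and Slc1a5 did not. Of the summed TPM of the 9 genes, Slc7a2 made up 7.58% ± 1.74 (SD, n = 8) at 8 months and 26.1% ± 7.97 (n = 9) at 28 months, where Slc38a2 made up 26.4% ± 4.65. Without replicate 2 of 28 months these shares were 25.2% and 27.3%. Slc1a5 made up 11.7% ± 3.29 and 5.98% ± 2.31. The sum itself was 244 ± 53.9 TPM at 8 months, 208 ± 26.9 at 22 months and 332 ± 124 at 28 months. Single mice of 28 months lay between 191 and 583 TPM. These values of 28 months include replicate 2, which held the highest Slc7a2 and Slc38a4 levels of its age.

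**Figure D3:**
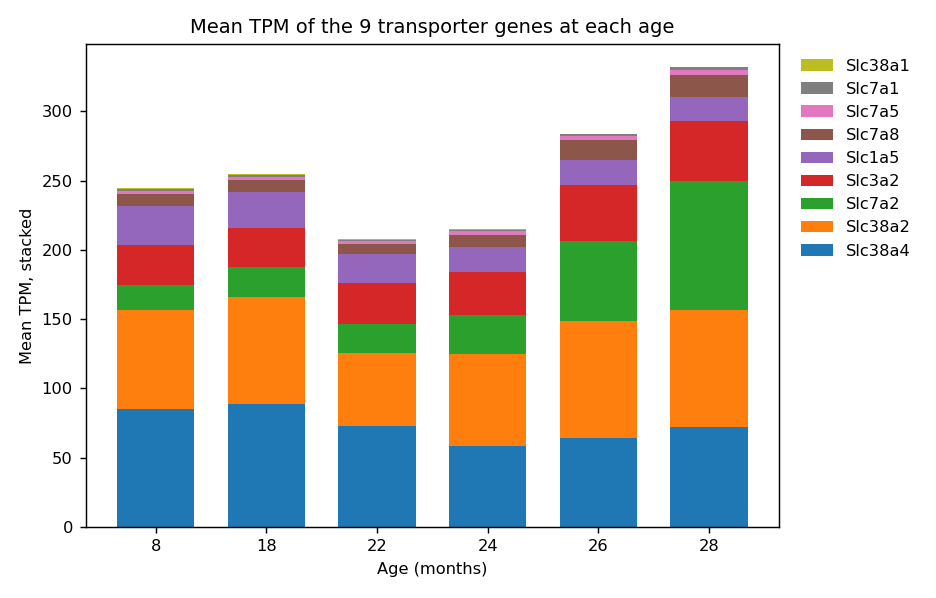
Mean TPM of the 9 genes stacked as bars, 1 bar per age (axis from 0, n = 8 or 9 mice). The bar of 28 months, which includes replicate 2, is 332 TPM high on average. The green segment of Slc7a2 grows from 18.0 to 93.1 TPM while that of Slc1a5 shrinks from 28.1 to 17.5 TPM.

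Within system A, Slc38a4 had the higher mean TPM at 8 months and Slc38a2 at 28 months. The log2 ratio of Slc38a2 to Slc38a4 TPM in each mouse, given as a description without a test, had a mean of -0.27 ± 0.23 (SD, n = 8) at 8 months and -0.46 ± 0.22 at 22 months. It was 0.17 ± 0.28 at 24 months, 0.39 ± 0.40 at 26 months and 0.32 ± 0.50 at 28 months. The ratio was above 1 in 1 of 8 mice of 8 months, 0 of 8 of 22 months, 5 of 8 of 24 months, 8 of 9 of 26 months and 7 of 9 of 28 months. Without replicate 2 of 28 months, which had the lowest ratio of its age, the mean was 0.45 ± 0.33. Between the arginine carriers, the log2 ratio of Slc7a1 to Slc7a2 went from -3.88 ± 0.18 at 8 months to -5.44 ± 0.62 at 28 months, where all 9 mice lay below the 8 months-old range. The ratio of the light chains Slc7a5 to Slc7a8 was -1.92 ± 0.70 at 8 months and -2.15 ± 0.63 at 28 months, with ranges that overlapped.

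**Figure D4:**
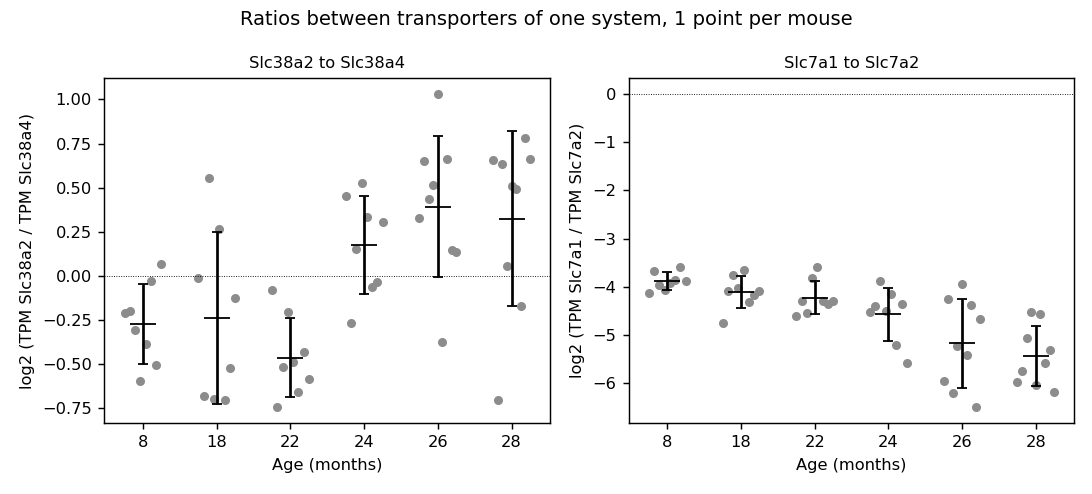
Log2 ratio of TPM of Slc38a2 to Slc38a4 (left) and of Slc7a1 to Slc7a2 (right) in each mouse against age in months, with the mean ± SD of each age and a dotted line at equal levels. The left ratio is below 0 in 7 of 8 mice of 8 months and above 0 in 8 of 9 mice of 26 months, and the right ratio is below 0 in all 50 mice.

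To see which transporters vary together among mice of one age, the mean of each age was subtracted from log2(CPM + 1), and each gene was correlated with the 12585 other genes tested over the 50 mice. These values are descriptions with no p, and all come from the same libraries. The heavy chain Slc3a2 followed its light chain Slc7a8 (Pearson r = 0.66), which was number 110 of 12585 in its list, and had r = 0.25 with its light chain Slc7a5 (number 3030). Slc7a5 had 33 to 141 counts per mouse against 215 to 808 for Slc7a8, so that these r cannot be compared directly. Slc3a2 and Slc7a2 had r = 0.61. Among the neighbours on chromosome 15, Slc38a2 and Slc38a4 had r = 0.47. Their neighbour Slc38a1, near the limit of detection, had r = 0.18 with Slc38a2 and 0.10 with Slc38a4. Slc7a8, on chromosome 14, had r = 0.46 with Slc38a2 and 0.52 with Slc38a4. Slc1a5 and Slc38a4 had r = -0.40, which was -0.30 without replicate 2 of 28 months. The median r of a member with all other genes lay between -0.01 and 0.02. The gene most like each member was Foxo1 for Slc7a8 (r = 0.90), Arnt for Slc7a2 (0.90), Slc7a10 for Slc1a5 (0.82), Mapk1ip1 for Slc3a2 (0.82), Stt3b for Slc38a4 (0.79), Rasa3 for Slc7a1 (0.77), Tinagl1 for Slc38a2 (0.71), Msn for Slc38a1 (0.63) and Atp8b1 for Slc7a5 (0.60). By Spearman's rho the first gene was the same for 7 of the 9, and without replicate 2 of 28 months it was the same for 6 of the 9 (not for Slc7a5, Slc3a2 and Slc38a4). Foxo1, a transcription factor of atrophy genes in muscle, stayed first for Slc7a8 in both.

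**Figure D5:**
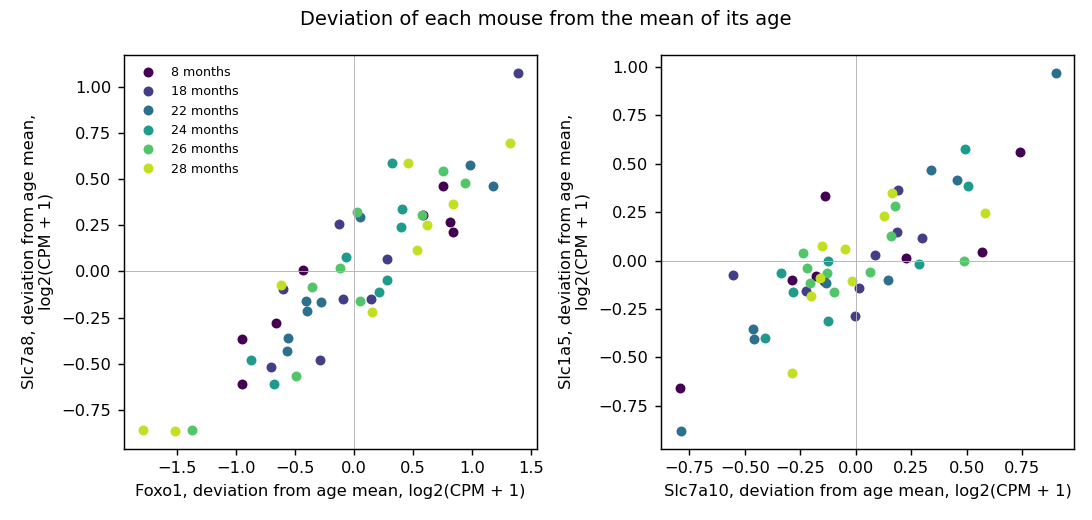
Deviation of each mouse from the mean of its age in log2(CPM + 1), for Slc7a8 against Foxo1 (left) and Slc1a5 against Slc7a10 (right), 1 point per mouse coloured by age. The points rise from lower left to upper right with r = 0.90 and r = 0.82 over 50 mice, and mice of every age lie along the same band.

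The same age-centred values were set against the summed CPM of 11 marker lists, which gave 99 relations, each with 100000 permutations within ages. In 7 of them both Pearson's r and Spearman's rho had an adjusted p under 0.05. Slc1a5 was higher where sums of other cells were higher, namely with the Schwann cell sum (r = 0.64, p = 3e-05, adjusted p = 0.00297; rho = 0.58, p = 0.00012, adjusted p = 0.0119) and with the adipocyte sum (r = 0.50, p = 0.00192, adjusted p = 0.0267; rho = 0.46, p = 0.00275, adjusted p = 0.0454). Without the 2 mice farthest from the median of the marker sum these r were 0.64 and 0.39, and without replicate 2 of 28 months they were 0.63 and 0.62. Slc3a2 and Slc7a2 went with the satellite cell sum (r = 0.63 and 0.62, p = 6e-05 and 0.00033, adjusted p = 0.00297 and 0.0109), with rho of 0.50 and 0.46 (p = 0.00087 and 0.00332, adjusted p = 0.023 and 0.047). Without the 2 farthest mice these r were 0.57 and 0.52. The satellite cell genes did not move as one with age. Their summed CPM was 30.3 ± 2.58 (SD) at 8 months and 34.1 ± 5.45 at 28 months. Abundant genes weigh most in such a sum, and which of its genes carry these relations was not tested. Of 4 tested at 28 against 8 months, 1 was higher and 1 lower, with a median log2 fold change of -0.22. In that comparison 39.6% of all genes were called. Slc38a1 went with the macrophage sum (r = 0.51, p = 0.00051, adjusted p = 0.0126; rho = 0.50, p = 0.0005, adjusted p = 0.023). Slc38a4 was lower where the fibroblast and Schwann cell sums were higher (r = -0.47 and -0.45, p = 0.00071 and 0.00243, adjusted p = 0.0141 and 0.0267; rho = -0.49 and -0.45, p = 0.00093 and 0.00157, adjusted p = 0.023 and 0.0311). Without the 2 farthest mice r was 0.44 for Slc38a1, and -0.43 for Slc38a4 with each list. The part of these cells in the age differences of the transporters was not tested.

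Other amino acid carriers and the enzymes and sensors behind them were described from 5 lists of general knowledge, at 28 against 8 months. Of 17 tested other plasma membrane transporters, 5 were higher and 2 lower, with a median log2 fold change of 0.23 against 0.01 for all genes. These 7 of 17 stood beside 39.6% called of all genes. The largest changes were in Slc43a1 (LAT3, a carrier of leucine that needs no heavy chain), whose mean CPM was 13.5 ± 1.44 in the mice of 8 months against 75.6 ± 55.6 in those of 28 months (log2 fold change 2.48 ± 0.35, FDR 3.38e-07), in Slc7a10 (-1.42 ± 0.37) and in Slc6a17 (1.25 ± 0.33). Slc7a10, a small neutral amino acid exchanger that is also a partner of Slc3a2, was low, with 1.54 ± 0.88 CPM at 8 months. Of 9 tested lysosomal carriers, 5 were higher and 1 lower (median 0.43), beside 21% higher and 18.7% lower of all genes, led by the histidine and peptide carriers Slc15a3 (1.17 ± 0.34) and Slc15a4 (0.68 ± 0.20) and the cystine exporter Ctns (0.54 ± 0.11).

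The amino acid response list, whose genes are induced by ATF4 or belong to the GCN2 arm, had 5 higher and 5 lower of 22 tested, with a median of 0.04. Its largest changes were in Ddit4, an inhibitor of mTORC1 (2.21 ± 0.55, 6 of 9 mice above the 8 months-old range), Phgdh, the first enzyme of serine synthesis (-1.23 ± 0.26), and Cth, which makes cysteine (1.11 ± 0.25). Of 24 tested enzymes of the carried amino acids, 6 were higher and 4 lower (median 0.04). Glul, glutamine synthetase, went from 351 ± 139.8 CPM at 8 months to 1629 ± 700.4 CPM at 28 months, with 8 of 9 mice above the 8 months-old range and a log2 fold change of 2.21 ± 0.31 (FDR 3.8e-07). Gamt, of creatine synthesis, had -1.19 ± 0.28 and Oat, of ornithine metabolism, 0.68 ± 0.12. In the list of leucine and arginine sensing to mTORC1, 6 of 31 tested genes were higher and 5 lower (median 0.02), with Sesn1, a leucine-binding sestrin, at a mean CPM of 24.6 ± 4.79 in mice of 8 months against 192 ± 161 in those of 28 months (2.96 ± 0.43), Lars at 0.56 ± 0.09 and the Ragulator subunit Lamtor4 at -0.54 ± 0.11. In the response, enzyme and sensing lists the genes called higher and lower were nearly equal in number, and their shares called (10 of 22, 10 of 24 and 11 of 31) stood beside 39.6% for all genes.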

How the data were processed

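Paired-end stranded mRNA libraries of gastrocnemius RNA from 50 mice were used, grouped by the age in the sample labels. The authors trimmed reads with Cutadapt 1.9.1 and assigned them with kallisto 0.43.1 to protein-coding transcripts of GRCm38. Per their methods, reads fitting several transcripts were divided evenly, which would give fractions. Of the distinct 31-mers of the 9 genes' coding transcripts, 0% to 4.34% occurred in coding transcripts of other genes (GENCODE vM21), the highest share being that of Slc3a2. The authors deposited counts summed per gene, which are whole numbers and not normalized, and how these were made whole is not given in the sources used here (23874 values had a count of 0 and a TPM above 0). They also deposited TPM values, which the authors scaled by transcript length and library size.

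Counts were fitted with edgeR 4.0.16 in R 4.3.3 (TMM, quasi-likelihood test, 6 ages in 1 fit, genes kept if 8 mice or more had 1 CPM or more, Benjamini-Hochberg, FDR 0.01). Alternatives were DESeq2 1.42.0, limma 3.58.1 on log2(TPM + 1) and log2(TPM + 0.1), upper-quartile factors, no filter, a fit on the 2 ages compared, the replicate number as a block, FDR 0.05 and each of the 50 mice left out in turn. The SE of a fold change comes from the same fit, and 95% intervals are normal intervals from it. Descriptions used Python 3.11.15, numpy 2.4.6, pandas 2.3.3 and scipy 1.17.1. Libraries of the same age were never alike within counting error (lowest chi-square per degree of freedom 6.38 over 184 pairs), so that no library was counted as a repeat. The procedures were tested on simulated data. The sources used here name no sequencing batch.

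The members, the 5 context lists, the 11 marker lists and the tests were chosen with earlier results of these data known, and no list is independent evidence. Named genes were the 9 members, the 3 genes of each context list with the largest called change between 28 and 8 months, and for each member the gene with the highest age-centred r.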

Additional observations from a re-analysis of the deposited data

Results flagged for a closer look

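In each age, the highest and the lowest CPM of each transporter were compared with the other mice by the ratio of the gap to the range (Dixon, 95% critical values). Of 54 groups, 5 had a mouse apart, and chance flags about 1 in 20. All 5 were the highest mouse of their group. At 28 months, replicate 2 held 269.8 CPM of Slc38a4 while the other 8 mice held 68.6 to 139 CPM, a ratio of 0.652. At 22 months, replicate 8 held 189 CPM of Slc38a4 against 87.2 to 132 CPM in the others, and replicate 1 held 119 CPM of Slc7a2 against 51.0 to 77.6 CPM. At 18 months, replicate 6 held 44.3 CPM of Slc7a8 while the next highest held 24.7 CPM, and replicate 3 held 331 CPM of Slc38a2 against 151 to 221 CPM. These 5 values came from 5 different mice.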

How the results depend on the processing

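No called transporter changed direction in any alternative. Of the counts of transporters called, 82 of 87 under other settings and 547 of 550 with 1 mouse left out stayed within 1.5 times the main count. This tally includes comparisons with 0 called in every fit, and a like count can hide a change of genes. At 28 against 8 months the fit on the 2 ages lost Slc7a1 and Slc7a5, and both limma fits lost Slc7a5. Without replicate 2 of 28 months Slc7a1 was lost and Slc38a4 gained. In the test of any difference both limma fits lost Slc7a1 and Slc7a5, and DESeq2 gained Slc38a2 and Slc38a4. At 24 against 8 months the count went from 0 to 1 with DESeq2 (Slc1a5), with only the 2 ages in the fit (Slc7a2) and at FDR 0.05 (Slc1a5), and it was 0 to 1 with 1 mouse left out. At 26 against 8 months it went from 4 to 2 with limma on log2(TPM + 1) and on log2(TPM + 0.1), and it was 3 to 4 with 1 mouse left out, where Slc1a5 was lost without replicate 8 of 8 months (FDR 0.0101). With 1 mouse left out it was 5 to 6 at 28 against 8 months and at 28 against 22 months and 6 to 8 in the test of any difference. Slc38a2 lost its call at 28 against 22 months in 6 of 50 such fits and in the fit on the 2 ages (FDR 0.0111). Slc7a8 lost its call at 28 against 8 months without replicate 1 of 28 months (FDR 0.0109). Of differences that were not called, Slc38a1 at 26 against 8 months (-0.02) ranged from -0.12 to 0.068 with 1 mouse left out and was above 0 without any of replicates 2 and 6 of 8 months or 2, 4 and 8 of 26 months. Slc38a4 at 28 against 22 months (-0.09) ranged from -0.35 to 0.015 and was above 0 without replicate 8 of 22 months. The replicate block changed the call of Slc7a8 at 26 against 8 months (0.70, FDR 0.0164) and no other call of a transporter. Same-numbered mice of different ages had a median correlation of deviations of 0.065 over 121 pairs, against -0.010 for other pairs. It exceeded 0.1 in 50 of 121 such pairs and in 247 of 920 other pairs, and 12 of 50 mice were most like their own number. Whether mice of one number share a factor was not tested, and the main fit did not take the numbers as pairing. Over all genes, calls at 28 against 22 months went from 3485 to 1883 in the fit on the 2 ages, those at 26 against 8 months from 2314 to 1454 without replicate 1 of 26 months, and those at 24 against 8 months from 77 to 190 with DESeq2, 159 in the fit on the 2 ages and 122 with the block. The test of any difference has no fit on 2 ages. Depth limits Slc38a1 most, and Slc7a1 and Slc7a5 next. Marker sums and the removal of replicate 2 from them were examined after the data were seen.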
